A study of Mus musculus with 24 samples.

Results

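Matrix proteases and their inhibitors were followed in dermal papilla (DP) cells of mice that lack Hdac1 and Hdac2 in the DP. The members were all genes named Mmp, Adamts or Timp with a number, taken by symbol alone. This gave 46 of the 25755 genes listed, of which 23 were Mmp genes, 19 were Adamts genes and 4 were Timp genes. The DP is the small condensate of mesenchymal cells enclosed by the hair bulb that signals to the follicle epithelium through the hair cycle. DP cells were sorted as YFP-positive cells from whole skin of 3 control and 3 double mutant mice at each of 4 ages, postnatal day 20 (P20, first telogen, the resting phase), P24 (early anagen, the growth phase), P28 (mid anagen) and P60 (second telogen), which gave 24 libraries. Double mutants (dM1/2) were Cor-cre/+ with Hdac1Flox/Flox and Hdac2Flox/Flox. All controls also carried Cor-cre/+, together with Hdac1Flox/+ and Hdac2Flox/+, or with only one of these floxed alleles, or with a single floxed gene in the homozygous state and the other heterozygous, and the labels do not say which library had which control genotype. Corin-Cre, which drives the deletion in DP cells, was on FVB and the floxed alleles were on C57BL/6J. The mice were females at P20 and males at P24 and P28 by the study's methods, which give both sexes for P60, and in the libraries the X-inactivation transcript Xist was high and the Y-linked gene Ddx3y was at 0 at both P20 and P60, so that sex and hair-cycle stage cannot be told apart.

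The deposited values are read counts divided by a size factor, called normalized reads here, and between 8171944 and 49331751 reads per library fell on genes. Depth was lowest in telogen, with at most 13369732 reads, against at least 35469841 reads in anagen. Hdac1 was lower in dM1/2 at P24 (log2 fold change −2.01 ± 0.22 SE, limma adjusted p = 0.00167) but not past the threshold at the other ages, and P28 control 3 held 105 normalized reads of Hdac1, below the 126 to 190 of the dM1/2 libraries. Hdac2 did not pass the threshold at any age, and reads outside a deleted exon do not check the deletion. The 12 DP markers summed to between 117078 and 327120 normalized reads in the P28 controls and to between 80997 and 97302 in the P28 dM1/2 libraries, with 3 of them higher and 4 lower in dM1/2 at P28, and 2 higher and 8 lower at P24. Their part in the results was not tested. The 8 keratinocyte markers summed to at most 580 normalized reads in any library. P28 controls 2 and 3 stood apart from each other. The 4 markers of other dermal fibroblasts (Pi16, Dpp4, Ly6a and Cd34) summed to 23455, 42083 and 3451 normalized reads in P28 controls 1, 2 and 3 and to 7031, 12527 and 11214 in the P28 dM1/2 libraries. This order of the P28 controls was not particular to fibroblast markers. It was shared by summed markers of muscle and dermal sheath (5388, 7457 and 1251), macrophages (384, 1046 and 87.2) and endothelial cells (425, 487 and 250). The DP markers had the reverse order (220096, 117078 and 327120). Without P28 controls 2 and 3, only 1 control library was left at P28. The log2 fold change in that fit was 0.72 for Adamts3, −0.73 for Mmp11 and 0.56 for Mmp16, and Adamts13 no longer reached the filter.

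Matrix metalloproteinases (Mmps) are zinc enzymes that cut collagens, laminins and other matrix proteins. Most are secreted as inactive proenzymes, and the membrane-type members stay on the cell surface. The Adamts enzymes are secreted relatives that trim procollagens or cut proteoglycans such as versican and aggrecan, and the tissue inhibitors of metalloproteinases (Timps) bind the active sites of these enzymes. In the follicle, such enzymes act where the bulb grows down into the dermis and where the matrix of the DP is remodelled.

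Levels between genes were compared per kb of exon. In the P28 controls Mmp2 (7271 normalized reads per kb), Timp2 (6433), Mmp14 (3094) and Adamts2 (2493) made up 72.1% of the summed level of all members, and in the P60 controls Timp2 (12883) and Mmp2 (9536) alone made up 58.8%. The summed level of the Mmp genes was 18146 ± 1107 normalized reads per kb in the P20 controls and 6647 ± 1691 in the P24 controls (SD, n = 3 in each). It was 12977 ± 6140 in the P28 controls, with libraries from 7057 to 19316, and 15555 ± 1678 in the P60 controls. At the other end, 7 members did not reach a mean of 10 normalized reads at any age and were not tested, namely Mmp1a, Mmp1b, Mmp7, Mmp8, Mmp10, Mmp20 and Mmp21. Mmp1b and Mmp7 had no read in any library. Of the 46 members, 39 passed the filter at one or more ages and 35 at every age. The plot of all tested members by library shows the family to be split, with most secreted members highest in telogen and a smaller set highest in anagen.

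**Figure D1:**
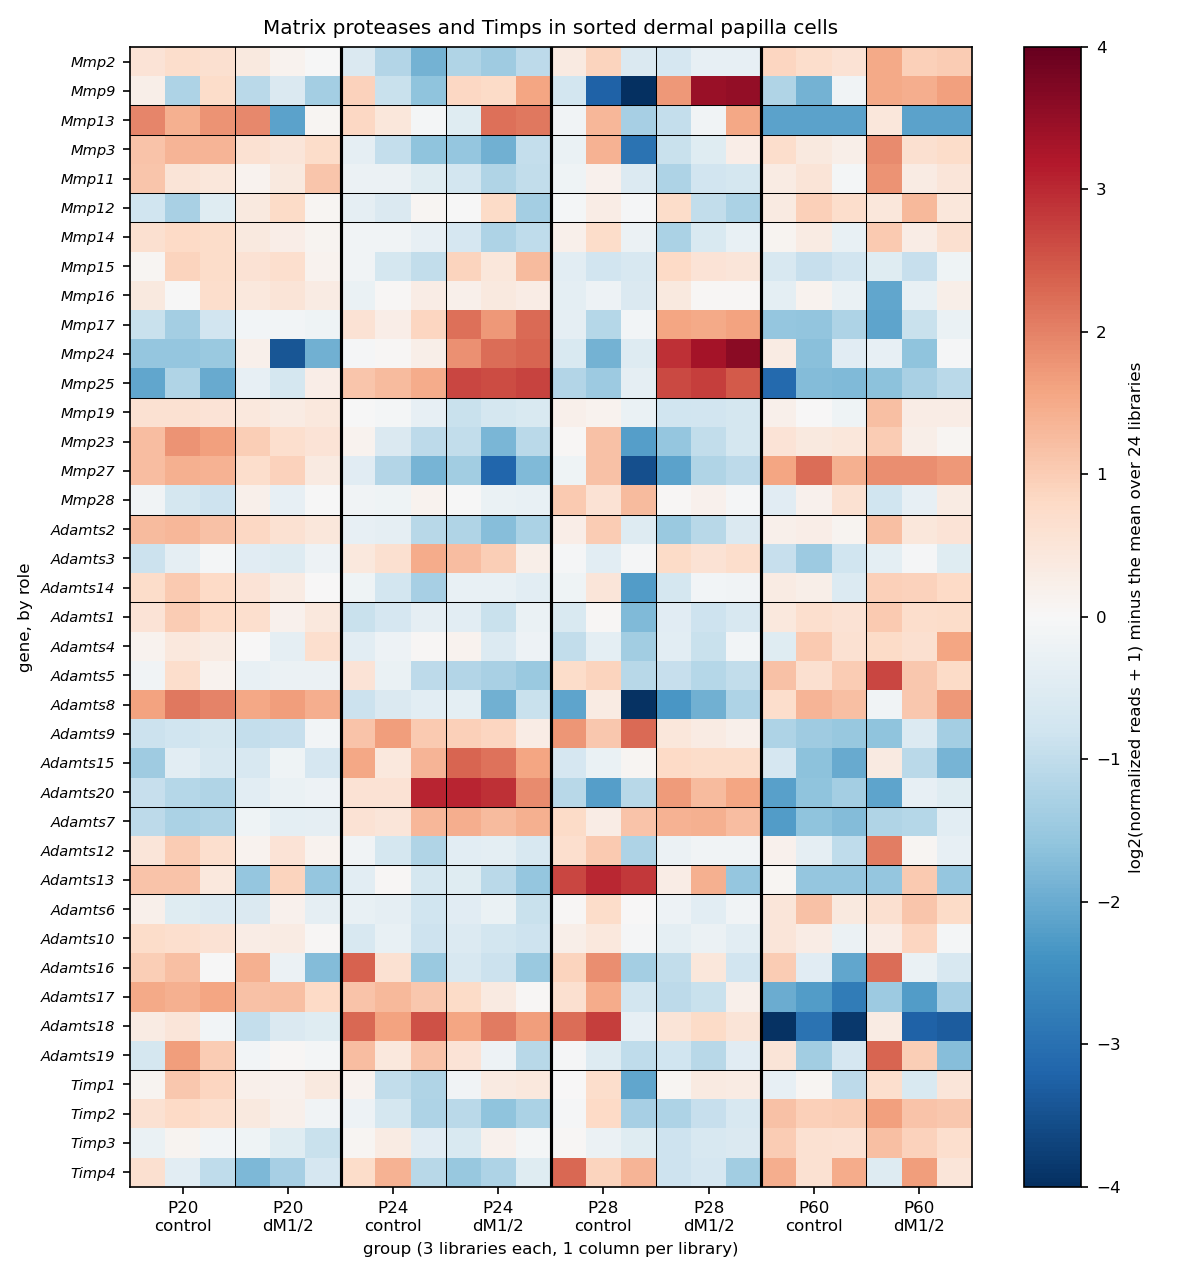
Colour gives log2(normalized reads + 1) of each gene minus its mean over the 24 libraries, with genes in rows by role and 1 column per library; differences beyond ±4 are drawn in the end colours. Mmp17, Mmp24 and Mmp25 stand out as red in the 6 dM1/2 libraries of P24 and P28, and Mmp2, Mmp27, Adamts2 and Timp2 are mostly red at P20 and P60.

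The first comparison was dM1/2 against control at each age. The members that passed the test were concentrated in anagen. At P24, 8 of the 37 members tested passed an adjusted p under 0.05 in limma, 4 of them higher and 4 lower in dM1/2, against 26.6% of all genes tested (14.8% higher and 11.8% lower). At P28, 17 of 38 passed, 9 higher and 8 lower, against 35.5% of all genes (20% higher and 15.6% lower). At P20 a single member of 37 passed, against 0.433% of all genes (0.354% higher and 0.0795% lower). At P60 none of 35 passed in limma or edgeR, against 0% of all genes in limma, and 1 passed in DESeq2, against 0.185% of all genes. At an unadjusted p under 0.05 in limma there were 4 of 35 members and 525 of 14042 genes at P60. These shares were near the background at P24 and P28. Single libraries moved the counts. The P24 count was 16 without control 3 (28.7% of all genes in that fit), 4 without control 2 (14.6%) and 5 without dM1/2 2 (18.1%) or dM1/2 3 (16.8%). The P28 count was 28 without control 3 (40.9%) and 11 without control 1 (23.1%) or dM1/2 3 (23.4%). The median log2 fold change over the members tested was −0.12 at P24 and −0.50 at P28, beside −0.01 and 0.00 over all genes. The groups did not overlap for 12 of 37 members at P24, beside 44.8% of all genes. At P28 they did not overlap for 21 of 38 members, beside 51.3% of all genes, so groups without overlap were common at these ages. In all, 6 members were called at both P24 and P28 (Mmp11, Mmp15, Mmp17, Mmp19, Mmp24 and Mmp25), with the same sign at both ages. Bulk libraries cannot tell fewer cells of a type from less RNA per cell.

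**Figure D2:**
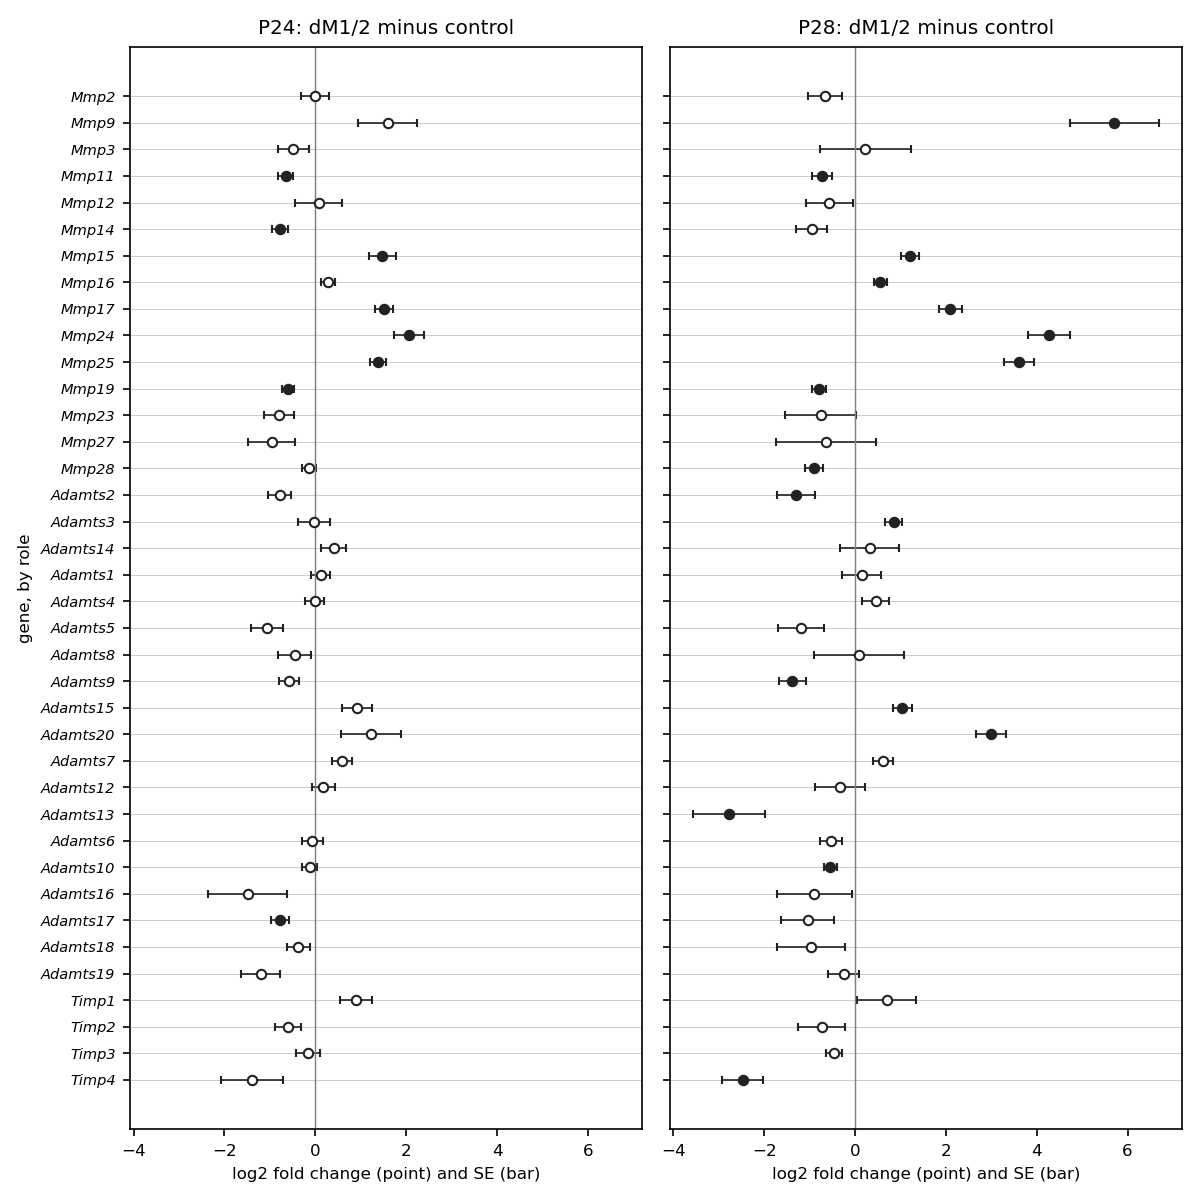
Points give the log2 fold change of dM1/2 against control at P24 and P28 and bars its SE (3 libraries in each group), with filled points for genes at a limma adjusted p under 0.05. Mmp15, Mmp17, Mmp24 and Mmp25 lie to the right of 0 with filled points at both ages, and Mmp11 and Mmp19 to the left.

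The membrane-type Mmps held most of the rises. Of the 6 genes of this group, 4 rose in dM1/2 at P24 and 5 rose at P28, while Mmp14 fell at P24. Of all genes tested, 14.8% rose and 11.8% fell at P24, and 20% rose at P28. Mmp24 (MT5-MMP, best known from neurons; ENSMUSG00000027612, chr2:155775342-155818366, plus strand, GRCm38) was nearly silent in telogen, at 12.6 normalized reads or fewer in every P20 and P60 library. At P24 it held 9.29, 10.04 and 11.5 normalized reads in the controls and 36.7, 49.5 and 53.1 in dM1/2. At P28 it held 6.09, 1.92 and 6.45 in the controls and 79.7, 106 and 129 in dM1/2. Every dM1/2 library was above every control at both ages, by a log2 fold change of 2.06 ± 0.32 at P24 (SE, limma adjusted p = 0.00439) and 4.28 ± 0.46 at P28 (adjusted p = 0.000967). The P28 controls held 34 reads of Mmp24 in all and the P28 dM1/2 libraries 756. Of the exon bases of Mmp24, 13.6% overlap BC029722 on the other strand, and BC029722 itself moved the other way, from a mean of 256 normalized reads in the P28 controls to 82.6 in dM1/2.

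Mmp25 (MT6-MMP, a lipid-anchored enzyme best known from neutrophils; ENSMUSG00000023903, chr17:23628311-23645277, minus strand) showed the same direction. It held 57.3, 64.3 and 74.2 normalized reads in the P24 controls and 172, 163 and 175 in the P24 dM1/2 libraries. At P28 the controls were at 10.9, 8.97 and 20.1 and the dM1/2 libraries at 166, 182 and 147. The dM1/2 level was thus almost the same at both ages, while the control level was lower at P28. The log2 fold change was 1.38 ± 0.18 at P24 (limma adjusted p = 0.00259) and 3.61 ± 0.34 at P28 (adjusted p = 0.000658). The neutrophil markers S100a9 and Ly6g had at most 3 reads in any library, Csf3r was higher at P28 in dM1/2 (log2 fold change 1.44 ± 0.37, adjusted p = 0.0229) and S100a8 was not (−1.20 ± 0.55, adjusted p = 0.136). In telogen Mmp25 held between 5.36 and 31.4 normalized reads at P20 and between 2.10 and 11.8 at P60. Its P20 mean was 7.30 in the controls (8 reads in all) and 22.5 in dM1/2 (33 reads). These P20 groups did not overlap, as for 25.4% of all genes, and the difference was not past the threshold in limma.

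Mmp17 (MT4-MMP, also lipid-anchored; ENSMUSG00000029436, chr5:129584169-129611099, plus strand) was far more abundant. The P24 controls held 720, 578 and 877 normalized reads and the P24 dM1/2 libraries 2220, 1624 and 2336. The P28 controls held 373, 220 and 446 and the dM1/2 libraries 1438, 1370 and 1479. The groups did not overlap at either age, and the log2 fold change was 1.51 ± 0.20 at P24 (limma adjusted p = 0.00265) and 2.10 ± 0.25 at P28 (adjusted p = 0.00141). Mmp15 (MT2-MMP; ENSMUSG00000031790, chr8:95352268-95375080, plus strand) was at 87.4, 58.7 and 47.6 normalized reads in the P24 controls and at 178, 131 and 233 in dM1/2. At P28 it was at 70.9, 56.4 and 61.1 in the controls and at 165, 141 and 134 in dM1/2. Its log2 fold change was 1.47 ± 0.30 at P24 (adjusted p = 0.0113) and 1.21 ± 0.20 at P28 (adjusted p = 0.00412). These 4 genes kept their calls at P24 and P28 whichever library was left out.

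Mmp14 (MT1-MMP, the main surface collagenase of fibroblasts and the activator of pro-Mmp2) moved the other way. The P24 controls held 13899, 13892 and 12027 normalized reads and the P24 dM1/2 libraries 9496, 6510 and 7484, so that all dM1/2 libraries were lower (log2 fold change −0.78 ± 0.18, limma adjusted p = 0.0173). This call was lost without P24 control 2 (adjusted p = 0.0668), dM1/2 2 (0.0603) or dM1/2 3 (0.0580). At P28 Mmp14 held 17399, 25024 and 12896 normalized reads in the controls and 6322, 9955 and 12345 in dM1/2, again without overlap (−0.95 ± 0.34, adjusted p = 0.068), and it passed the threshold there without control 3. Mmp16 (MT3-MMP) held 958, 1081 and 849 normalized reads in the P28 controls and 1642, 1311 and 1310 in dM1/2, a log2 fold change of 0.56 ± 0.15 (adjusted p = 0.0253). Its call was lost without P28 control 1 (adjusted p = 0.0832) or any dM1/2 library (0.0579 to 0.0624), without controls 2 and 3 together (0.0634) and in the single fit over all libraries (0.235).

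**Figure D3:**
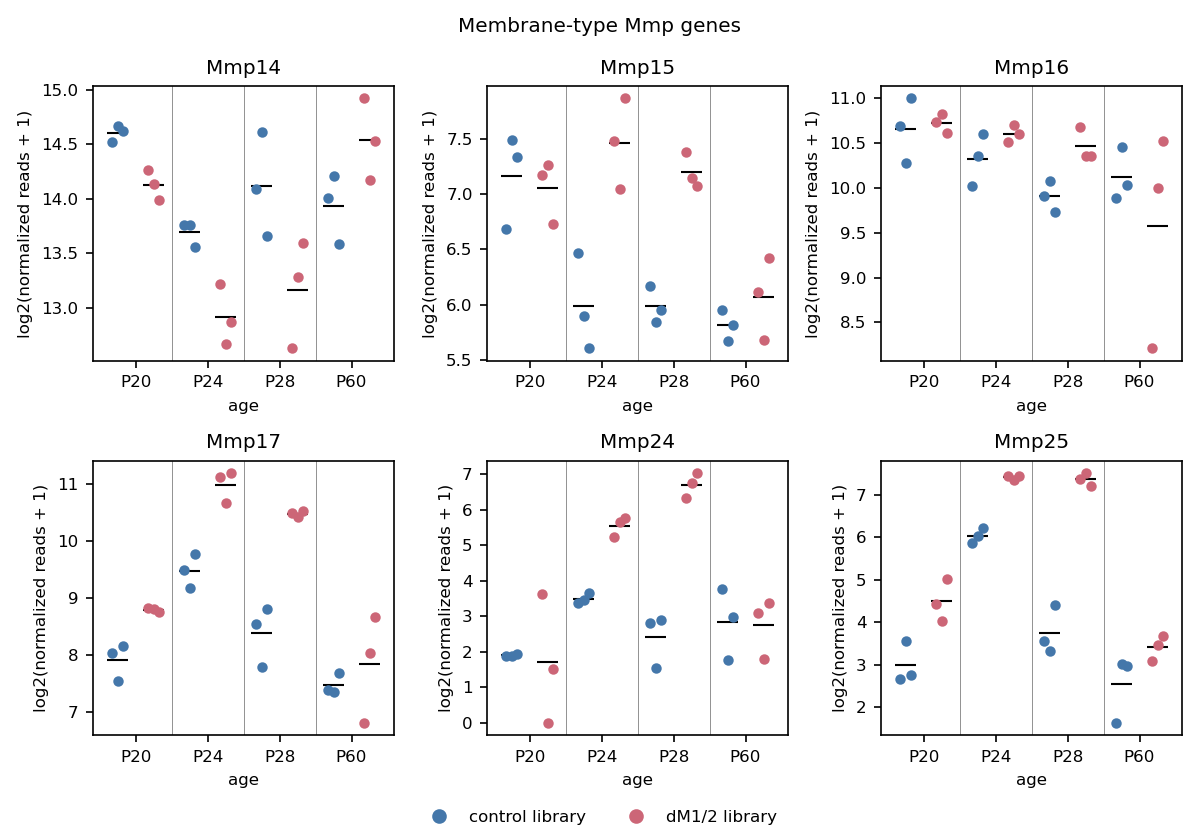
Each point is a library, on a scale of log2(normalized reads + 1), with controls in blue, dM1/2 in red and the mean of 3 libraries as a bar; the scales differ between genes and do not start at 0. Mmp15, Mmp17, Mmp24 and Mmp25 are higher in all dM1/2 libraries at P24 and P28, and Mmp14 is lower in all of them at these ages.

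The upstream sequences of 3 membrane-type genes are printed to show the starting regions of the membrane-type genes with the largest rises at P28, Mmp24 and Mmp25, beside that of Mmp14, which fell. They are the 250 bases before the RefSeq start on GRCm38.p6, 5′ to 3′ on the strand of the gene, at chr2:155775092-155775341 (plus), chr17:23645270-23645519 (minus) and chr14:54431348-54431597 (plus). Capitals mark the GC box GGGCGG on either strand, where its complement reads CCGCCC.
Mmp24: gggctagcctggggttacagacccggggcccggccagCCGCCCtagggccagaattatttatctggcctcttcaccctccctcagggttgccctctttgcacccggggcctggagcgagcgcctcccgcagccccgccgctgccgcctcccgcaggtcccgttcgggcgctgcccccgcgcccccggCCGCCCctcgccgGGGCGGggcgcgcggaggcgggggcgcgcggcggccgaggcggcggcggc
Mmp25: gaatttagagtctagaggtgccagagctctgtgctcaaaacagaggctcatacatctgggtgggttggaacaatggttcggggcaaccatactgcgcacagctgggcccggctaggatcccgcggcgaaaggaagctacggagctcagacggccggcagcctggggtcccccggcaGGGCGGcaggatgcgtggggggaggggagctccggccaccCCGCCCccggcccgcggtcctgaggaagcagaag
Mmp14: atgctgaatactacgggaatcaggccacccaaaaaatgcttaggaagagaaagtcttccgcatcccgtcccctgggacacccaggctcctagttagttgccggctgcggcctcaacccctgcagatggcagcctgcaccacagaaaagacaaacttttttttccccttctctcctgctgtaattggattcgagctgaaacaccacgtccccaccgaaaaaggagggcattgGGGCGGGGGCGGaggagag
The Mmp24 window held 33 CpG dinucleotides and 3 GC boxes, the Mmp25 window 17 and 2, and the Mmp14 window 10 and 2. Over 32536 windows of this length the median was 6 CpG and 33.0% held a GC box. A match is a match of letters only. Windows of 32 of the 46 members were listed, and those of Mmp11 and Adamts20 lie away from the annotated gene start.

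Among the gelatinases, which cut denatured collagen and basement membrane collagen, Mmp9 and Mmp2 differed. Mmp9 held 11.7, 1.28 and 0 normalized reads in the P28 controls and 70.4, 236 and 243 in the P28 dM1/2 libraries. This was the largest fold change of the family, at 5.71 ± 0.98 on the log2 scale (limma adjusted p = 0.00519), and its size depends on the few control reads, 29 in all, since it was 3.66 with a pseudocount of 10 (adjusted p = 0.00235) and 3.65 without P28 controls 2 and 3 (adjusted p = 0.00429). At P24 Mmp9 held 39.5, 10.5 and 5.95 normalized reads in the controls and 37.4, 35.0 and 63.2 in dM1/2, which overlap (1.59 ± 0.64, adjusted p = 0.109). At P60 all dM1/2 libraries (60.6, 57.8 and 65.9) were above all controls (8.40, 4.77 and 18.4), with a log2 fold change of 2.62 ± 0.52 whose unadjusted limma p of 0.00105 did not survive adjustment (0.918). Mmp2, the most abundant protease of the set, did not pass the threshold in limma with all libraries at any age. At P28 it held 24762, 35803 and 12970 normalized reads in the controls and 12145, 15331 and 15644 in dM1/2 (−0.66 ± 0.38, adjusted p = 0.222), and the order of its P28 controls was that of the fibroblast marker sums.

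The stromelysin Mmp11, which is known from stroma around remodelling epithelia, fell at both anagen ages. It held 423, 426 and 358 normalized reads in the P24 controls and 299, 218 and 252 in dM1/2 (log2 fold change −0.66 ± 0.16, limma adjusted p = 0.0223). At P28 it held 442, 558 and 345 in the controls and 212, 292 and 305 in dM1/2 (−0.72 ± 0.23, adjusted p = 0.046). The groups did not overlap at either age, but the calls were fragile. The P24 call was lost in 4 of 6 omissions of a single library (without controls 1 or 2 or dM1/2 2 or 3, adjusted p 0.0627 to 0.086) and the P28 call in all but that of control 3 (0.0764 to 0.126).

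Mmp19, an enzyme of vessels and basement membranes, also fell at both ages. It held 1413, 1372 and 1159 normalized reads in the P24 controls and 776, 883 and 938 in dM1/2 (−0.60 ± 0.13, limma adjusted p = 0.0145), and 1664, 1593 and 1200 in the P28 controls against 827, 848 and 881 in dM1/2 (−0.79 ± 0.15, adjusted p = 0.00758). At P24 the call was lost without control 2 (adjusted p = 0.0615) or dM1/2 1 (0.0578), and at P28 it held in every omission. Of its exon bases, 28.3% overlap genes on the other strand, mainly Tmem198b, whose own mean went from 297 normalized reads in the P28 controls to 200 in dM1/2. By the study's methods the libraries were made with a directional (strand-specific) kit. The strand setting of the counting was not given in the sources used here, so it is not known whether reads of such pairs were kept apart. Mmp28 (epilysin) fell at P28 alone, from 555, 395 and 641 normalized reads in the controls to 275, 301 and 257 in dM1/2 (−0.90 ± 0.20, adjusted p = 0.013). Its call was lost without P28 control 1 (adjusted p = 0.0542) or dM1/2 3 (0.053), and at P24 the groups overlapped (−0.13 ± 0.15).

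A cluster of 10 Mmp genes lies in 427 kb of chromosome 9 (chr9:7272514-7699585), in the order Mmp13, Mmp12, Mmp1b, Mmp3, Mmp1a, Mmp10, Mmp8, Mmp27, Mmp20 and Mmp7. This cluster holds the classical interstitial collagenases, stromelysins and the metalloelastase, and it was mostly silent here. Mmp3 and Mmp27 carried most of its reads, Mmp12 held between 23.0 and 151 normalized reads in every library, and Mmp13 reached the filter at P20 alone. No member of the cluster passed the threshold between genotypes at any age in limma with all libraries, while DESeq2 called Mmp3 and Mmp27 at P20. Mmp3 held 1096, 3465 and 171 normalized reads in P28 controls 1, 2 and 3 and 704, 944 and 1582 in dM1/2 (log2 fold change 0.23 ± 1.00045, limma adjusted p = 0.882). Mmp27 held 441, 1113 and 42.5 in the same controls and 110, 214 and 236 in dM1/2 (−0.64 ± 1.10, adjusted p = 0.692). The spread among the controls was as wide as any difference between the groups and followed the fibroblast marker sums of 23455, 42083 and 3451, and the part of these cells in the values was not tested. Mmp27 was called at P28 (lower) without control 3, or without controls 2 and 3 together.

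The windows before Mmp3 (chr9:7445572-7445821, plus) and Mmp27 (chr9:7571146-7571395, plus) are printed because they are the most abundant genes of the cluster and differ in the AP-1 site TGANTCA, which is shown in capitals. RefSeq on GRCm38.p6 and the 250 bases before the start were used as above.
Mmp3: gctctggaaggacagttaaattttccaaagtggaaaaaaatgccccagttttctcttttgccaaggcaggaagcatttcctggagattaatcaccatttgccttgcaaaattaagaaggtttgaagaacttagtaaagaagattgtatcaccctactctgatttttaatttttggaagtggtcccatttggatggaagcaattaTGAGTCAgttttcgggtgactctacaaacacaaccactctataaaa
Mmp27: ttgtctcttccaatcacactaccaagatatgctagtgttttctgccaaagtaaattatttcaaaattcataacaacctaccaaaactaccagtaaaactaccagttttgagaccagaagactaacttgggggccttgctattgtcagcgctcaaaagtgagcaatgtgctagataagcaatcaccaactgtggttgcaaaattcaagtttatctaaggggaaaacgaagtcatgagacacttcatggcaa
The Mmp3 window holds the site 46 bases before the start, and the Mmp27 window holds none. Among the 10 genes of the cluster, 8 had an AP-1 site in a listed window, 7 of them in the window nearest the annotated start, against 6.73% of all windows and 0 of the 22 other members with a window. None of the 10 held a GC box, against 16 of those 22, and their windows held between 0 and 4 CpG, against a median of 15 in the others. The 8 genes with the site included Mmp3 and also Mmp1b and Mmp7, which had no read in any library.

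The procollagen N-proteinases, which remove the amino-terminal propeptide of fibrillar procollagens, changed in opposite directions at P28. Adamts2, the most abundant, held 14086, 13905 and 8186 normalized reads in the P24 controls and 7719, 5435 and 7451 in dM1/2 (log2 fold change −0.79 ± 0.25, limma adjusted p = 0.0547). At P28 it held 21447, 35863 and 12513 in the controls and 6421, 8282 and 11994 in dM1/2 (−1.31 ± 0.42, adjusted p = 0.0488). The P28 call was lost in all omissions of a single library but that of control 3 (adjusted p 0.0633 to 0.153). The order of its P28 controls was again that of the fibroblast marker sums, whose 4 genes did not pass the threshold (median log2 fold change −0.67), and the part of those cells was not tested. Adamts3 held 90.5, 69.8 and 90.3 normalized reads in the P28 controls and 160, 139 and 153 in dM1/2, which do not overlap (0.85 ± 0.19, adjusted p = 0.014). The call was lost without dM1/2 3 (adjusted p = 0.0578) and without controls 2 and 3 together (0.0575). At P24 its groups overlapped (−0.03 ± 0.35), with 126, 146 and 260 in the controls and 222, 186 and 109 in dM1/2. Adamts14 was not past the threshold in limma with all libraries at any age.

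Of the 7 proteoglycanases, which cut versican and aggrecan, 2 rose and 1 fell at P28, beside 20% and 15.6% of all genes. Adamts20, known from the white-spotting phenotype of the belted mouse, held 71.8, 32.7 and 71.3 normalized reads in the P28 controls and 505, 375 and 460 in dM1/2 (log2 fold change 2.98 ± 0.33, limma adjusted p = 0.00105). At P24 the level was higher in both groups, at 232, 232 and 1286 in the controls and 1291, 1180 and 578 in dM1/2. Control 3 was far above the other P24 controls and the groups overlapped (1.22 ± 0.66, adjusted p = 0.214). The gene was called (higher) at P24 without control 3. Adamts15 held 10507, 4805 and 9202 normalized reads in the P24 controls and 18009, 16161 and 10583 in dM1/2, a difference that was not past the threshold (0.91 ± 0.33, adjusted p = 0.0805) although the groups did not overlap. At P28 it held 2241, 2954 and 3806 in the controls and 6217, 5985 and 5952 in dM1/2 (1.04 ± 0.20, adjusted p = 0.00794).

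Adamts9 is the member of this group that fell. It held 4176, 2568 and 5943 normalized reads in the P28 controls and 1664, 1552 and 1403 in dM1/2 (−1.38 ± 0.29, limma adjusted p = 0.011), and 2704, 3880 and 2529 in the P24 controls against 2394, 2216 and 1502 in dM1/2 (−0.58 ± 0.23, adjusted p = 0.101). The P28 calls of Adamts20, Adamts15 and Adamts9 held in every omission of a library. Exons of Adamts9 overlap the opposite-strand genes A730049H05Rik and Gm15737 over 11.99% of their length, at means of 47.3 and 51.3 normalized reads in the P28 controls and 15.5 and 30.3 in dM1/2. Adamts1, the most abundant proteoglycanase, and Adamts4, Adamts5 and Adamts8 did not pass the threshold in limma with all libraries at any age, although edgeR and DESeq2 called Adamts5 at P24 and DESeq2 at P28. Adamts5 held 4118, 2349 and 1389 normalized reads in the P24 controls and 1273, 1147 and 1020 in dM1/2 (−1.06 ± 0.35, adjusted p = 0.0603). Adamts15 and Adamts8 are neighbours on chromosome 9 with a gap of 20109 bases, and Adamts1 and Adamts5 lie 53059 bases apart on chromosome 16.

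The remaining Adamts genes gave few calls. Adamts13, the protease of von Willebrand factor, was measured on few reads. It held 17.4, 22.4 and 19.7 normalized reads in the P28 controls and 2.56, 6.86 and 0 in dM1/2, or 127 reads against 22 (log2 fold change −2.77 ± 0.79, limma adjusted p = 0.0325). The call was lost in edgeR (adjusted p = 0.0701) and without P28 control 1 (0.0877) or dM1/2 1 (0.0734), and the fold change was −1.21 with a pseudocount of 10. Adamts13 held at most 2.01 normalized reads at P24. Adamts17, a gene of fibrillin microfibrils, held 503, 565 and 485 in the P24 controls and 389, 294 and 238 in dM1/2 (−0.78 ± 0.19, adjusted p = 0.0221), with the call lost without P24 control 2 (0.0826), dM1/2 2 (0.0662) or dM1/2 3 (0.0566). At P28 it held 358, 635 and 137 in the controls and 110.9, 123.4 and 261.7 in dM1/2, which overlap (−1.04 ± 0.59, adjusted p = 0.213).

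Adamts10, another gene of fibrillin microfibrils, fell at P28 from a mean of 1501 normalized reads to 1023 (−0.54 ± 0.15, limma adjusted p = 0.0291), and the call was kept only without control 3 (otherwise 0.0539 to 0.101). Adamts7, which cuts cartilage oligomeric matrix protein (Comp), was the member called at P20. It held 404, 352 and 364 normalized reads in the P20 controls and 737, 642 and 647 in dM1/2, without overlap (0.85 ± 0.13, adjusted p = 0.0422). The call was lost without any library other than P20 control 1 (adjusted p 0.101 to 0.157). The log2 fold change of Adamts7 was also above 0 at P24 (0.59 ± 0.22, adjusted p = 0.0901), P28 (0.61 ± 0.22, adjusted p = 0.067) and P60 (0.93 ± 0.27, adjusted p = 0.986). Adamts6, Adamts12, Adamts16, Adamts18 and Adamts19 were not past the threshold in limma with all libraries at any age, and DESeq2 called Adamts16 and Adamts19 at P24 and Adamts18 at P28.

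Of the 4 inhibitors, Timp4 alone was called between genotypes in limma with all libraries, while DESeq2 also called Timp2 at P20, Timp4 at P24 and Timp3 at P28. Timp4 held 93.5, 34.6 and 48.5 normalized reads in the P28 controls and 9.81, 11.1 and 6.42 in dM1/2, without overlap (log2 fold change −2.47 ± 0.45, limma adjusted p = 0.00659), and the call held in every omission. At P24 its values were 31.0, 49.2 and 7.94 in the controls and 5.82, 7.24 and 12.9 in dM1/2 (−1.40 ± 0.68, adjusted p = 0.171). At P20 the controls held 29.5, 13.5 and 8.60 and the dM1/2 libraries 4.55, 6.64 and 11.1, and at P60 52.5, 28.6 and 53.0 against 12.6, 60.3 and 25.9. Markers of fat cells were also lower in dM1/2 at P28. Their sum was 323, 127 and 382 normalized reads in P28 controls 1, 2 and 3, where Timp4 held 93.5, 34.6 and 48.5. Of 3 adipocyte markers, Plin1 was the one tested at P28 and it fell (log2 fold change −3.98 ± 0.43, limma adjusted p = 0.00102), and the 3 summed to between 127 and 382 normalized reads in the P28 controls and between 11.1 and 19.3 in dM1/2. Their part in the values of Timp4, a gene known from fat and heart, was not tested.

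Timp2, the most abundant inhibitor, held 23570, 41999 and 9626 normalized reads in the P28 controls and 10279, 12960 and 15580 in dM1/2 (−0.73 ± 0.52, limma adjusted p = 0.314). At P24 it held 21274, 14945 and 10253 in the controls and 11582, 7950 and 10156 in dM1/2 (−0.60 ± 0.28, adjusted p = 0.156). In telogen it held 36816, 42398 and 38539 in the P20 controls and 32007, 28153 and 22225 in dM1/2, without overlap but short of the threshold (−0.53 ± 0.17, adjusted p = 0.144). At P60 it held 54652, 47344 and 48583 in the controls and 75472, 54225 and 50914 in dM1/2. The order of the P28 controls, with control 2 highest and control 3 lowest, was shared by Timp2, Mmp2, Mmp14, Adamts2 and the fibroblast marker sum. Sums of the muscle and dermal sheath, macrophage and endothelial markers had this order too, and the DP markers had the reverse. The part of any of these cells in the values was not tested.

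Timp3, a matrix-bound inhibitor that also acts on Adam17 and on Adamts enzymes, held 6511, 5362 and 4434 normalized reads in the P28 controls and 3547, 3965 and 4217 in dM1/2, which do not overlap (−0.46 ± 0.17, limma adjusted p = 0.0813). It held 6609, 7925 and 4579 in the P24 controls and 4113, 6978 and 5944 in dM1/2, 5158, 6744 and 5779 in the P20 controls and 5564, 4506 and 3399 in dM1/2, and 12508, 9595 and 9312 in the P60 controls and 14494, 11913 and 9967 in dM1/2. The groups overlapped at P20, P24 and P60. Of its exon bases 21.3% overlap Syn3 on the other strand, which held at most 41.7 normalized reads in the P24 and P28 libraries. Timp1, on the X chromosome, held 252, 115 and 99.2 in the P24 controls and 207, 295 and 307 in dM1/2 (0.89 ± 0.35, adjusted p = 0.102), and 234, 372 and 53.9 in the P28 controls against 241, 296 and 287 in dM1/2 (0.70 ± 0.65, adjusted p = 0.445). Its values were 246, 490 and 422 in the P20 controls and 266, 259 and 301 in dM1/2, and 183, 241 and 111 in the P60 controls and 364, 151 and 320 in dM1/2. The sign of Timp1 in anagen was opposite to that of the other inhibitors, but no difference between the inhibitors was tested.

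**Figure D4:**
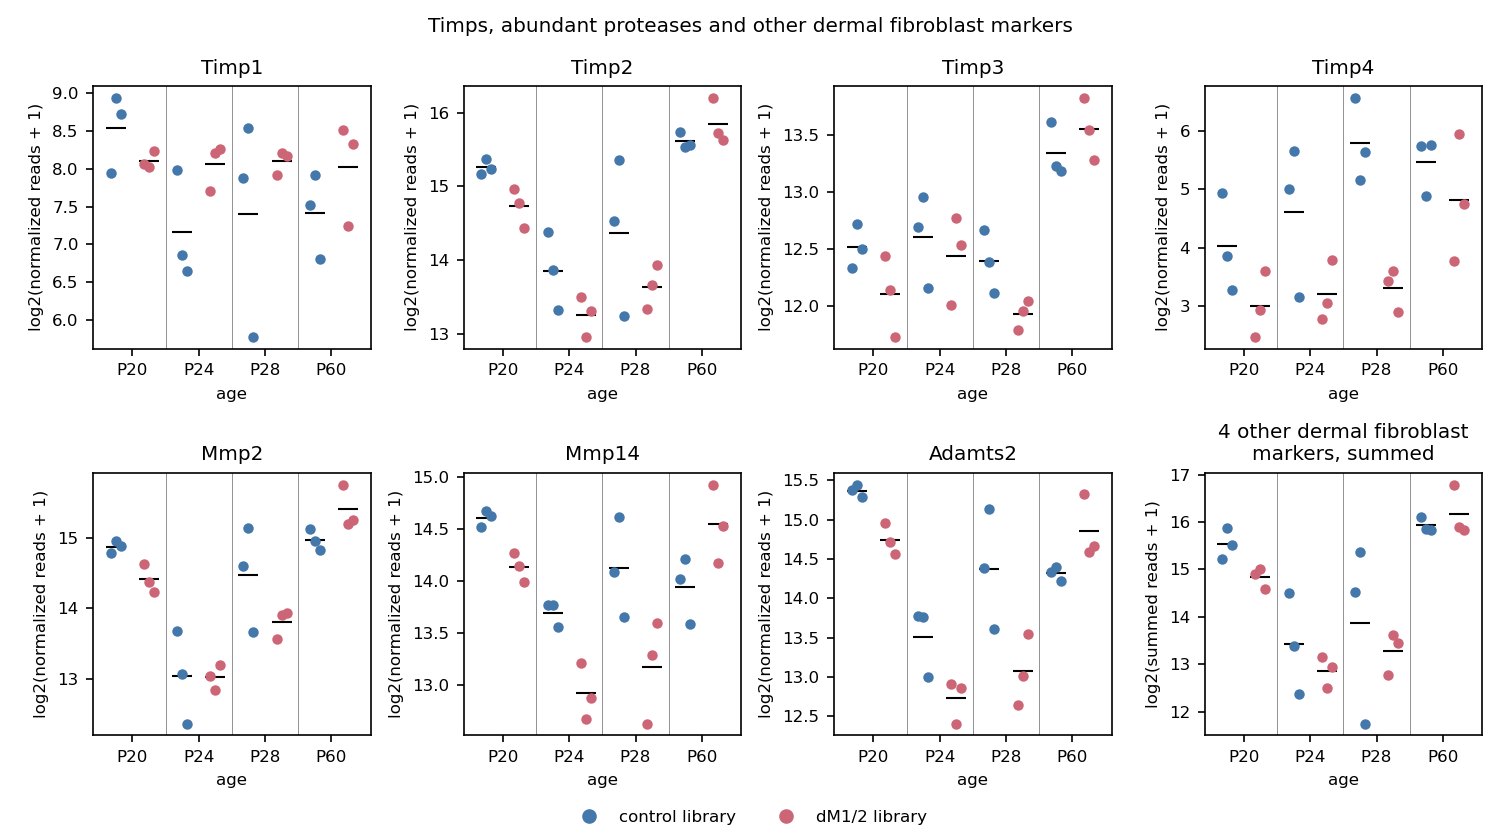
Each point is a library on a scale of log2(normalized reads + 1), with controls in blue, dM1/2 in red and the mean of 3 as a bar, for the 4 Timps, Mmp2, Mmp14, Adamts2 and the summed other dermal fibroblast markers; the scales differ between panels and do not start at 0. Timp4 is lower in all 3 dM1/2 libraries at P28, and the P28 controls of Timp2, Mmp2, Mmp14 and Adamts2 are spread in the same order as the marker sum.

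Timp2 is also the adaptor by which Mmp14 binds and activates pro-Mmp2, so the 3 levels were set against each other within each library, per kb. The ratio of Mmp2 to Timp2 was 0.712, 0.661 and 0.595 in the P24 controls and 0.841, 1.06 and 1.06 in dM1/2, which do not overlap. It was 1.21, 0.985 and 1.56 in the P28 controls and 1.37, 1.37 and 1.16 in dM1/2, which do. At P60 its values were 0.752, 0.777 and 0.692 in the controls and 0.842, 0.799 and 0.886 in dM1/2, without overlap, and at P20 the groups overlapped. The ratio of Mmp14 to Timp2 overlapped between the groups at all ages, with means of 0.6005 and 0.5177 at P24 and 0.583 and 0.474 at P28. An exact two-sided permutation test of 3 libraries against 3 cannot go below p = 0.1, which was its value for Mmp2 to Timp2 at P24 and P60, so that no ratio could pass.

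The other genes of the protease system were 39 Adam, Adamtsl, tolloid, cathepsin, plasminogen activator, serpin and related genes. At P24, 0 rose and 4 fell of 37 tested in limma, beside 14.8% of all genes that rose and 11.8% that fell. At P28, 0 rose and 6 fell of 37, beside 20% and 15.6% of all genes. The median log2 fold change was −0.39 at P28, beside 0.00 over all genes. The largest falls at P28 were Adam22 (−2.25 ± 0.25, limma adjusted p = 0.00107), Fap, a fibroblast surface protease (−1.65 ± 0.20, adjusted p = 0.00131), Furin, the convertase that removes the propeptides of membrane-type Mmps (−1.41 ± 0.22, adjusted p = 0.00385), and Reck, a membrane-anchored inhibitor of Mmps (−1.35 ± 0.21, adjusted p = 0.00374). Furin, Reck and Adam22 had also fallen at P24. At P20 and P60 no gene of the list passed, with 21 of 38 and 1 of 39 at an unadjusted p under 0.05 in limma, beside 2735 of 13845 and 525 of 14042 genes.

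The test of the difference itself asked which members responded differently in anagen (P24 and P28) and telogen (P20 and P60). Of 37 members, 10 passed, against 30.2% of all genes (16.1% higher and 14.1% lower). The effect was more positive in anagen for Mmp24, Mmp9, Mmp25, Mmp15 and Mmp17, 4 of which are membrane-type, by 1.18 to 3.30 on the log2 scale. It was more negative in anagen for Adamts9, Adamts2, Mmp14, Mmp11 and Mmp19, where the difference of effects ran from −1.14 to −0.89. At P20 the ratio of dM1/2 to control means was 0.652 for Adamts2, 0.722 for Mmp14, 0.870 for Mmp19, 0.919 for Mmp11 and 1.12 for Adamts9. At P60 it was 1.49 for Adamts2, 1.53 for Mmp14, 1.56 for Mmp19, 1.69 for Mmp11 and 1.21 for Adamts9. The telogen mean of the effect thus joined opposite signs for all of these but Adamts9. Leaving out any library kept the calls of 9 of these 10, Mmp11 being the exception (lost without any of 8 libraries, adjusted p 0.0526 to 0.0641). Without P28 controls 2 and 3 together, Mmp9 was lost as well (adjusted p = 0.0759). The test averages the ages of each stage, and not every difference held for each pair of ages. For Mmp9 the ratio of dM1/2 to control means was 2.43 at P24 and 5.83 at P60. For Mmp25 it was 2.61 at P24 and 3.08 at P20. Sex and depth differ between the stages in the same way and cannot be told apart from them.

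Between P24 and P28, Mmp25 was the single member whose change differed between genotypes, of 37 tested and against 0.707% of all genes (0.453% higher and 0.255% lower). It went from a mean of 65.3 to 13.3 normalized reads in the controls (log2 fold change −2.28 ± 0.37, limma adjusted p = 0.0479) and from 170 to 165 in dM1/2 (−0.05 ± 0.15, adjusted p = 0.915), a difference of 2.23 ± 0.37 (adjusted p = 0.0312). The difference was kept without P24 control 2 or any P28 control and lost without P24 control 1, P24 control 3 or any dM1/2 library (adjusted p 0.0553 to 0.118). In the controls 2 of 37 members changed from P24 to P28, against 1.46% of all genes (0.723% higher and 0.738% lower), and the other was Adamts13 (3.19 ± 0.52, adjusted p = 0.0478). In the omissions of a library the count of control calls was 0 or 1. In dM1/2, 3 of 36 changed, against 2.67% of all genes (1.69% higher and 0.983% lower). Mmp2 rose (0.78 ± 0.16, adjusted p = 0.047), Adamts15 fell (−1.27 ± 0.20, adjusted p = 0.0186), and Adamts18 fell (−1.18 ± 0.17, adjusted p = 0.0153). The dM1/2 count was between 0 and 5 in the omissions, the lowest without P28 dM1/2 2.

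In the controls alone, the family differed widely between anagen and telogen. Of 36 members tested, 24 passed, 10 higher and 14 lower in anagen, against 45.6% of all genes (23.8% higher and 21.9% lower). Higher in anagen were Adamts18 (3.53 ± 0.46, limma adjusted p = 0.000182), Adamts9 (2.58 ± 0.18, adjusted p = 2.89e-06), Adamts7 (2.28 ± 0.19, adjusted p = 8.21e-06), Mmp25 (2.13 ± 0.36), Adamts15 (1.55 ± 0.28), Adamts20 (1.37 ± 0.41), Adamts17, Mmp17, Adamts3 and Mmp28. Of these 10, 7 are Adamts genes, which make up 19 of the 46 members. Adamts genes were also among those lower in anagen. Lower in anagen were Adamts8 (−2.76 ± 0.54, adjusted p = 0.00202), Mmp27 (−2.55 ± 0.62, adjusted p = 0.00687), Mmp3 (−1.65 ± 0.56), Mmp23, Adamts1, Timp2 (−1.32 ± 0.31, adjusted p = 0.00589), Mmp2 (−1.17 ± 0.26), Adamts14, Adamts4, Adamts2, Mmp11, Adamts10, Timp3 and Mmp19. Mmp23 is a small membrane protein of the family.

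All 4 of the other dermal fibroblast markers were lower in anagen as well (median −1.92), with sums between 37952 and 70809 normalized reads in the telogen controls and between 3451 and 42083 in the anagen controls, and 10 of the 12 DP markers were higher. Their part in the lower values was not tested. Of the 24 calls, 20 held in every omission of a library, and Adamts14, Mmp3, Mmp23 and Timp3 did not, with adjusted p up to 0.0926. Without P28 controls 2 and 3 together, Mmp19 (0.0863) and Timp3 (0.233) were lost. The P20 and P60 controls were not alike for Adamts18, chosen here after its values were seen. Its P20 controls held 102, 114 and 74.6 normalized reads and its P60 controls 4.20, 9.53 and 4.61, against 248 to 472 in the P24 controls. Adamts17 was likewise lower in the P60 controls, at 32.3 to 56.7, than in the P20 controls, at 611 to 677. The test averages the ages of each stage, and not every call held for each pair of ages. The control mean of Adamts17 was 646 normalized reads at P20, 518 at P24 and 377 at P28. Adamts20 was at 58.6 at P28 against 72.2 at P20, and Mmp28 at 255 at P24 against 300 at P60. Of the members lower in anagen, Timp3 was at 6371 at P24 against 5894 at P20. Adamts2 (23274) and Mmp19 (1485) at P28 were above their P60 means of 20473 and 1459.

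**Figure D5:**
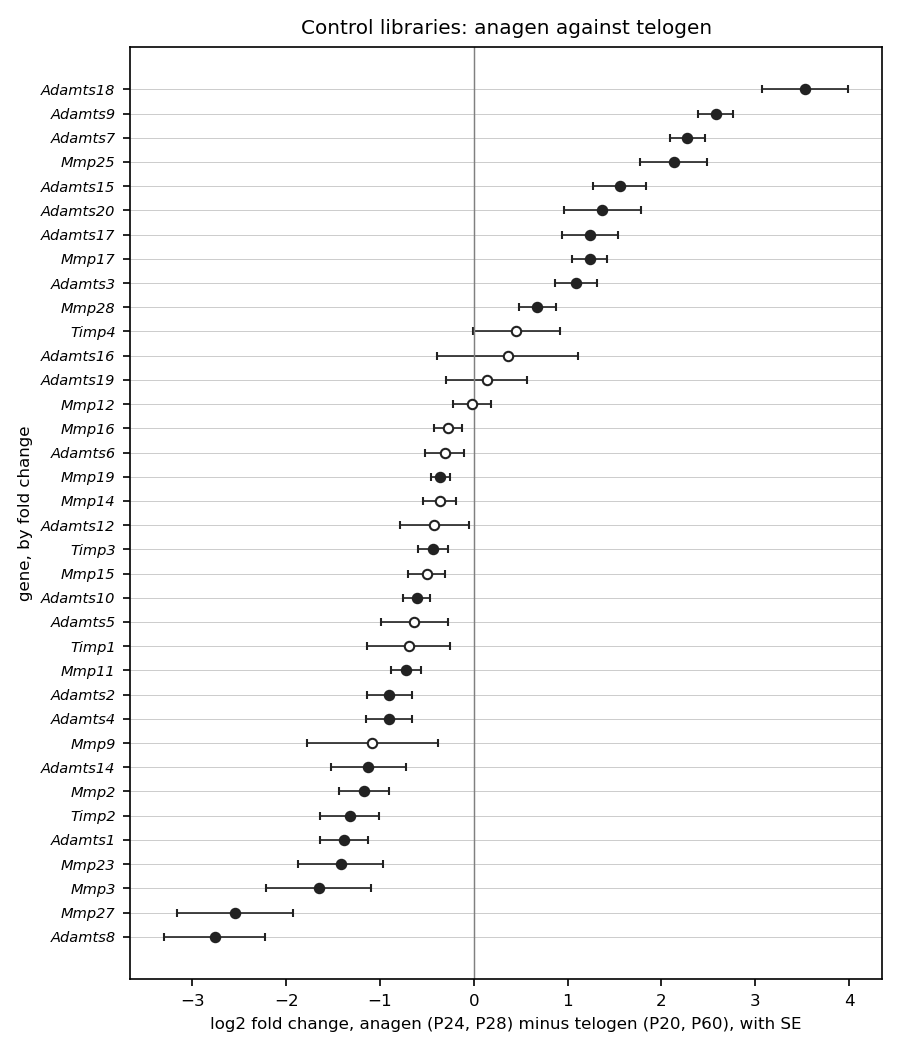
Points give the log2 fold change of anagen (P24 and P28, 6 control libraries) against telogen (P20 and P60, 6 control libraries) and bars its SE, with filled points for genes at a limma adjusted p under 0.05. Adamts18, Adamts9, Adamts7 and Mmp25 are at the top and Mmp3, Mmp27 and Adamts8 at the bottom, and 24 of the 36 points are filled.

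In telogen a single member passed adjustment in limma, Adamts7 at P20, while DESeq2 called 8 members at P20 (4.79% of all genes) and Mmp9 at P60. At P20, 26 of 37 members had a negative log2 fold change, with a median of −0.43 beside −0.01 over all genes. An unadjusted limma p under 0.05 was found for 20 of 37 members and for 2735 of 13845 genes. After Adamts7, Mmp3 came nearest, with 2917, 3347 and 3353 normalized reads in the controls and 2019, 1844 and 2210 in dM1/2 (−0.66 ± 0.12, limma adjusted p = 0.0511). In 18 of 37 members the groups did not overlap, 13 of them lower in dM1/2, beside 25.4% of all genes. The 5 that were higher in dM1/2 were Adamts7, Adamts20, Mmp12, Mmp17 and Mmp25. The fibroblast marker sums were 37952 to 60102 in the P20 controls and 24463 to 33186 in dM1/2, also without overlap, and their part in the lower values was not tested. Without P20 control 1, 13 members were called, 3 higher and 10 lower, but the share of all genes called was then 11.1%, and without any other P20 library no member was called.

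At P60 the sign turned. There 30 of 35 members had a positive log2 fold change, with a median of 0.56 beside 0.02 over all genes. The groups did not overlap for 8 members, all higher in dM1/2, beside 8.87% of all genes. These were Adamts1, Adamts2, Adamts3, Adamts7, Adamts14, Mmp2, Mmp9 and Mmp19. P60 dM1/2 1 stood apart for several members, chosen here after their values were seen. Adamts12 held 10634 normalized reads there and 2733 and 2050 in the other two, Adamts5 18101 against 5997 and 4869, and Adamts18 101 against 7.54 and 7.06. The fibroblast marker sum was 112894 in this library and 60769 and 58244 in the other dM1/2 libraries, and its part in these values was not tested. Leaving it out left the count of calls at 0.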

How the data were processed

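RNA of sorted DP cells from 24 mice was sequenced as 50-base single reads. Skins were dissociated mouse by mouse, so that each library is 1 animal. The authors trimmed reads with Trimmomatic, aligned them with TopHat2 to mm10, counted them per Ensembl GRCm38.p4 gene with HTSeq and divided the counts by DESeq2 size factors over all 24 libraries. The libraries were made with a directional RNA kit, but the strand setting of the counting and the DESeq2 version were not given in the sources used here. The deposited values are thus a signal of normalized counts, and the deposited columns of the authors' own fold changes and p-values were not used. Whole reads were recovered for 100% of values (tolerance 1e-06), with 1 read worth 0.338 to 2.87 normalized reads depending on the library. No pair of replicates was a copy. Of 25755 genes, 4842 had no read and 25431 matched the annotation, as did all 46 members.

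Groups came from the labels. The main test was limma 3.58.1 (R 4.3.3) with trend on log2(value + 1), for genes with a mean of at least 10 over the libraries of the fit, two-sided, with Benjamini-Hochberg adjustment over all genes tested and a threshold of 0.05. Fold changes on this scale understate the change of low genes. edgeR 4.0.16 (quasi-likelihood) and DESeq2 1.42.0 on the recovered reads, a pseudocount of 10, no filter, log2-CPM with TMM scaling and a prior count of 2, a single fit over all libraries, the replicate number as a block and each library left out in turn were the alternatives. Leaving out P28 controls 2 and 3 together was added after the data were seen, and leaves 1 control that is assumed to vary like the others. In simulated P28 counts (14126 genes) limma recovered 19% of genes changed by 1 and 83% of those changed by 2 on the log2 scale, and in P20 counts (13845 genes) 61% and 85%.

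Values of every library are given for the Timps, for members called at P20 or P60, and for the 16 further members with the largest fold changes among those called at P24 or P28. Other members are given by counts, ranges or single values, except that values of every library are also shown for some that were chosen after their values were seen (Mmp2, Mmp3, Mmp16, Mmp27 and Adamts5). The members, lists and tests were chosen with earlier results of these data known. Upstream sequences are those of RefSeq on GRCm38.p6. Python 3.11.15 with pandas 2.3.3, scipy 1.17.1 and matplotlib 3.10.9 was used for the remaining steps.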

Additional observations from a re-analysis of the deposited data

Results flagged for a closer look

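The effect of the deletion differed between hair-cycle stages for 10 members, by the test of the anagen (P24 and P28) minus the telogen (P20 and P60) effect over all 24 libraries. On the log2 scale, the difference of effects was 3.30 for Mmp24 (limma adjusted p = 0.00145), 2.80 for Mmp9 (0.0108), 1.31 for Mmp25 (0.0144), 1.27 for Mmp15 (0.0015) and 1.18 for Mmp17 (0.00946). It was −1.14 for Adamts9 (0.00579), −1.004 for Adamts2 (0.0197), −0.93 for Mmp14 (0.00975), −0.92 for Mmp11 (0.0325) and −0.89 for Mmp19 (0.00114). The call of Mmp11 was lost in 8 of 24 omissions of a library. The test averages the ages of each stage. By the ratio of group means, the rise of Mmp9 was smaller at P24 than at P60, and that of Mmp25 smaller at P24 than at P20. Adamts2, Mmp14, Mmp11 and Mmp19 had lower means in dM1/2 at P20 as well, and higher ones at P60. The anagen libraries were from males and deeper, the telogen libraries held no read of the Y-linked gene Ddx3y, and stage cannot be told apart from these.

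The change from P24 to P28 differed between genotypes for Mmp25, by 2.23 on the log2 scale (limma adjusted p = 0.0312). The call was lost in 8 of 12 omissions of a library (limma adjusted p 0.0553 to 0.118). It was also lost in the single fit over all libraries (0.0705) and with the replicate block (0.052).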

How the results depend on the processing

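The count of members called for anagen against telogen in controls (24) lay between 20 and 25, and the count of members whose effect differed between the stages (10) between 9 and 14, over all alternatives run. At P20 the count of 1 became 2 with a pseudocount of 10, 2 on log2-CPM with TMM, 8 in DESeq2, 0 in a single fit over all libraries and between 0 and 13 with a library left out. At P24 the count of 8 became 15 in DESeq2 and between 4 and 16 with a library left out, and at P28 the count of 17 became between 11 and 28. At P60 DESeq2 called 1 member, Mmp9, in place of 0. From P24 to P28 in controls the count of 2 became 1 without the filter, 1 in edgeR, 10 in DESeq2, 8 in the single fit, 0 without P28 controls 2 and 3 and between 0 and 1 with a library left out. In dM1/2 the count of 3 became 8 in DESeq2, 0 in the single fit and between 0 and 5 with a library left out. For the difference of these changes the count of 1 became 2 in DESeq2, 0 in the single fit and between 0 and 1 with a library left out. The share of all genes called also moved between fits, as given above for some of them. It is not given here for each fit, so these counts are not read as results about the members. The cause of these shifts was not tested. No called member changed sign. Of the values of single called members, 98 of those with a library left out lost the call and 623 kept it, and under the other alternatives 40 lost it and 462 kept it.

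The replicate numbers did not pair the samples: the correlation of same-numbered libraries was −0.401 to 0.0425 at P24 and −0.229 to 0.0270 at P28. At P20 (0.0822 to 0.231) every library correlated best with its own number, which is a hint from the data and not the design. At P60 the same correlation was 0.0238 to 0.344. With the replicate block, the P20 count was 5, the P24 count 7 (Mmp11 and Mmp19 lost, Adamts5 gained), the P28 count 13 (Adamts2, Adamts13, Mmp11 and Mmp16 lost), the P24 to P28 count was 0 in controls and 6 in dM1/2, and the count for the difference of changes was 0. The shares of all genes called with the block are not given here, so these counts are not read as results about the members. The lower depth of the telogen libraries limits what could be called for members with few reads there, such as Mmp24 and Mmp25.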
